A study of Myzus persicae with 16 samples.

Results

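A set of 150 Myzus persicae transcripts was followed whose level moved the same way when aphids met their alarm pheromone, in both rearing histories that were tested. The members are array identifiers chosen from measured responses. A probe was eligible when both dye channels were well above background, by the scanner software's call, on all 8 arrays that set exposed against solvent-treated aphids. On each array the log2 ratio of exposed over solvent signal was reduced by the array median, averaged over 4 arrays per rearing and then over the probes of an identifier. Identifiers with the same sign in both rearings and a size of at least 0.3 in each were ranked by the smaller of their 2 responses, and the first 150 were taken. They came from 7223 identifiers with an eligible probe, of which 267 (3.70%) met the rule. Another 433 identifiers reached the same size in both rearings with opposite signs. Of the 150 members, 126 were higher with pheromone (called raised here) and 24 were lower (called lowered). The responses themselves chose the members, so their sign and size are a description and carry no test.

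(E)-beta-farnesene, EBF, is a volatile sesquiterpene that many aphids release from their cornicles when attacked. Nearby aphids that perceive it stop feeding, walk away or drop from the plant. Aphids kept in constant EBF can lose this behaviour, which is called habituation, and transgenic plants that emit EBF are a way to hold them in such an atmosphere. The set asks which transcripts moved the same way with a pulse of EBF whether or not the animals had lived in it.

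The aphids were of a red tobacco-adapted strain and belonged to 4 conditions. Habituated aphids, reared for at least 6 months on Arabidopsis carrying 35S:EBFS, were exposed to EBF or to hexane alone. Aphids that the labels call not habituated, reared on Col-0 wild-type Arabidopsis, were exposed to EBF or to hexane alone. Both rearings had days of 16 h light with 8 h of darkness. An exposure lasted 30 min and used 1 µg of EBF in hexane and 50 aphids, whose total RNA was pooled and amplified. The cauliflower mosaic virus 35S promoter drives the synthase throughout the plant, so the host plant and the EBF in the air differ together between the rearings. Whole animals were pooled, so fewer cells of a type and less RNA per cell cannot be told apart.

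The 16 two-colour arrays formed 4 groups of 4, and each group carried the dyes Alexa Fluor 555 and 647 in 2 arrays of each orientation. Both groups with exposed non-habituated aphids lay on slide 1 and the other groups on slide 2. On slide 1 the share of probes well above background in both channels was 67.2% to 77.6% per array with 0 saturated probes, and on slide 2 it was 76.5% to 85.8% with 439 to 618 saturated. The labels do not say which arrays share an extract, so the spread between arrays may in part be technical. Ratios follow the dyes in the labels. The authors' deposited table has the same direction for the response of habituated (r = 0.990 across 10576 probes) and of non-habituated aphids (r = 0.995) and the opposite one for rearing under EBF (r = -0.984), where its column head names the same order as the labels. For rearing with solvent its column is headed as the inverse ratio, so r = -0.989 there fits the labels, and the authors' value table has r = 0.989. The direction of rearing under EBF is therefore unsettled, and each sign below that rests on it follows the labels and turns with it. The identifiers are 149 contig names and FB1816RPVRTD, and 0 of the identifiers on the arrays matched the 17052 genes of the RefSeq table of assembly MPER_G0061.0. The members are therefore given by identifier, without gene names or functions.

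**Figure D1:**
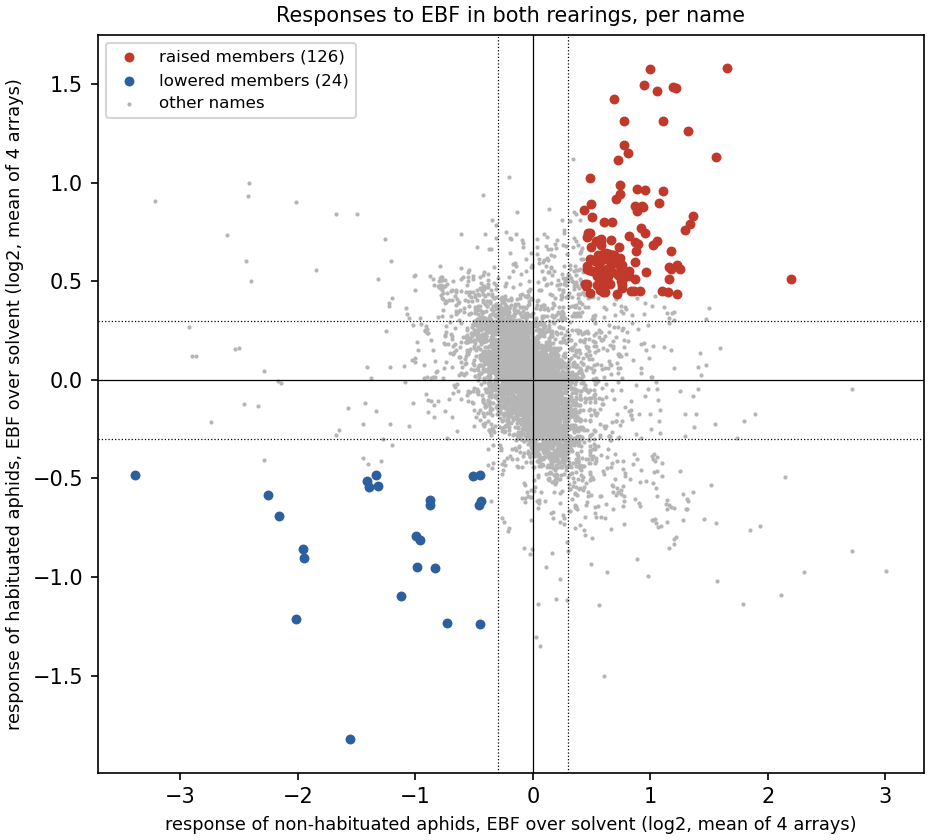
Response to EBF of each of 7223 identifiers, with non-habituated aphids on the x axis and habituated aphids on the y axis (log2 of exposed over solvent, each a mean of 4 arrays). Red points are the 126 raised members, blue points the 24 lowered members, grey points the other identifiers, and dotted lines mark the minimum size of 0.3. The lowered members spread farther along the non-habituated axis, to -3.38, than along the habituated axis, to -1.82.

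In the median, the raised members responded by about the same amount in habituated and non-habituated aphids. The rule set the same minimum on both responses and ranked by the smaller, so this is partly built in. Their median response was 0.60 on the log2 scale in habituated aphids (0.44 to 1.58 over the 126 members) and 0.73 in non-habituated aphids (0.44 to 2.19). The median over all 7223 identifiers was 0.01 in both rearings. In 79 of the 126 raised members (62.7%, against 54.5% of all identifiers) the response of non-habituated aphids was the larger one. The habituated response minus the non-habituated one had a median of -0.06 over the raised members and ran from -1.68 to 0.73.

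In the mean of 4 arrays, the 24 lowered members were moved farther, and less evenly, than the raised ones. By array, their median was the larger in size only on array 1 of each response and array 4 of non-habituated aphids. Their median response was -0.66 in habituated aphids (-1.82 to -0.48) and -1.06 in non-habituated aphids (-3.38 to -0.44). The response was larger in size in non-habituated aphids for 17 of the 24. Between arrays of a group, the SD of a lowered member was 1.15 (median) in habituated and 1.46 in non-habituated aphids. The same median SD was 0.51 and 0.47 for raised members and 0.20 and 0.28 for all identifiers, so the members of either direction varied more between arrays than a typical identifier.

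**Figure D2:**
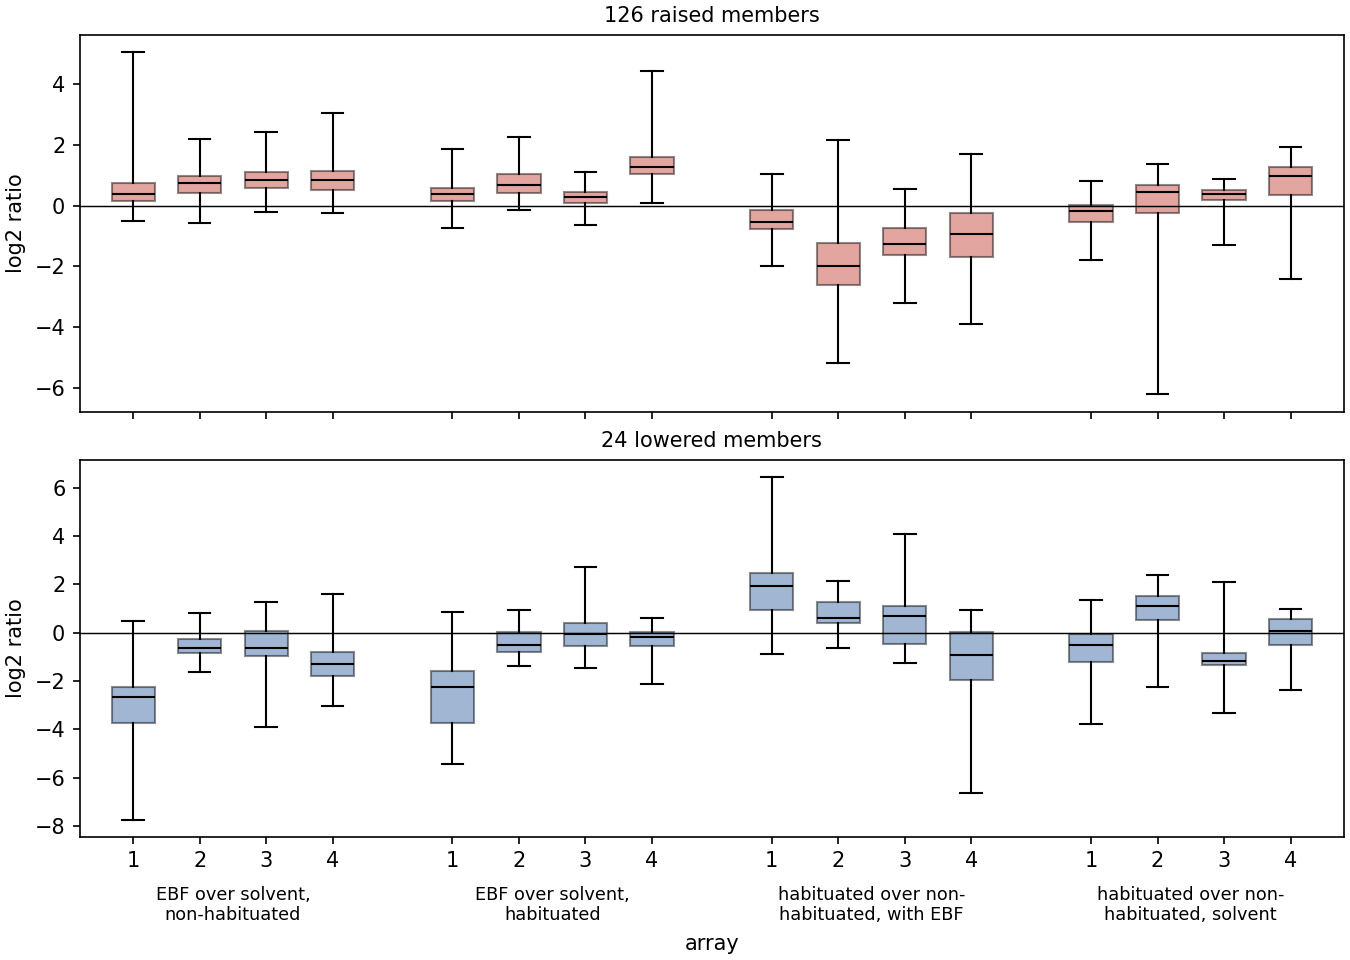
Log2 ratio of the raised members (upper panel) and of the lowered members (lower panel) on each of the 16 arrays, in 4 comparisons of 4 arrays. Lines are medians, boxes quartiles, and whiskers run to the lowest and highest member. Array 4 of the habituated response has the highest median of the raised members (1.28), and the lowered members are lowest on array 1 of each response (-2.24 and -2.67).

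The raised members were above 0 in the median on each of the 8 response arrays. In habituated aphids the median over the 126 members was 0.37, 0.68, 0.28 and 1.28 on arrays 1 to 4. In non-habituated aphids it was 0.38, 0.75, 0.84 and 0.83. The habituated values were higher on both arrays with the exposed sample in Alexa Fluor 647 (arrays 2 and 4) than on both with it in Alexa Fluor 555. The dyes are balanced in the mean of 4 arrays, and their part in single arrays was not tested.

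In habituated aphids, array 4 was the most extreme of the 4 arrays in 111 of 126 raised members (88.1%, against 20.8% of all identifiers). In non-habituated aphids the most extreme array was spread over the group, with 25, 23, 38 and 40 members on arrays 1 to 4. Without array 4 of the habituated response, 104 of the 126 raised members still met the rule. Leaving out any other single array of either response kept between 116 and 126 of them.

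Sign was kept from array to array more often among raised than among lowered members. Of the raised members, 66 of 126 (52.4%) were above 0 on all 8 response arrays, where 1.87% of all identifiers were, and 40 more had 7 of 8 arrays above 0. Of the lowered members, 1 of 24 was below 0 on all 8 arrays, where 0.235% of all identifiers were. The rule selected on the mean of these same arrays, so nothing is read from the difference to the background. Within a response, 88 of 126 raised members were above 0 on all 4 habituated arrays (15.1% of all identifiers) and 90 on all 4 non-habituated arrays (10.5%). Of the lowered members, 4 of 24 were below 0 on all 4 habituated arrays (13.6% of all identifiers) and 12 on all 4 non-habituated arrays (11.8%).

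Among the raised members, contig9633 ranked first. It had ratios of 0.85, 1.22, -0.18 and 4.43 on arrays 1 to 4 of habituated aphids, against 5.05, 1.21, 0.59 and -0.25 in non-habituated aphids. A single array stood high in each rearing, array 4 in habituated and array 1 in non-habituated aphids, and each rearing also had an array below 0. The mean response was 1.58 ± 1.99 in habituated aphids (SD, n = 4), a factor of 2.99, and 1.65 ± 2.34 in non-habituated aphids (SD, n = 4), a factor of 3.14. Each SD is larger than its mean.

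The second of the raised members, contig9345, had the same shape. Its ratios were 0.54, 1.45, -0.47 and 3.53 in habituated aphids and 2.86, 0.99, 0.98 and 0.45 in non-habituated aphids. Array 4 of the habituated group and array 1 of the non-habituated group were again the highest. The means were 1.26 ± 1.71 and 1.32 ± 1.06 (SD, n = 4 each), factors of 2.40 and 2.50.

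Other raised members had smaller and more even responses. contig82 and contig1136 were the raised members whose least extreme response array was highest. For contig82 the ratios were 0.61, 0.96, 0.58 and 1.37 in habituated aphids and 0.55, 0.78, 1.31 and 1.11 in non-habituated aphids. All 8 arrays were above 0.5. Its mean was 0.88 ± 0.37 in habituated and 0.94 ± 0.34 in non-habituated aphids (SD, n = 4 each), factors of 1.84 and 1.91. For contig1136 the ratios were 0.67, 0.95, 0.58 and 1.66 in habituated aphids and 0.43, 0.86, 1.14 and 1.13 in non-habituated aphids. It too was above 0 on every response array, with means of 0.97 ± 0.49 and 0.89 ± 0.33 (SD, n = 4 each). These are factors of 1.95 and 1.85.

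FB1816RPVRTD, the only member whose identifier is not a contig name, was also above 0 throughout. Its ratios were 0.37, 0.68, 0.37 and 1.32 in habituated aphids and 0.30, 0.83, 1.47 and 1.49 in non-habituated aphids. The means were 0.68 ± 0.45 and 1.02 ± 0.57 (SD, n = 4 each). At the edge of the set, contig9394 was the last member inside, with means of 0.86 in habituated and 0.44 in non-habituated aphids. The first identifier outside, contig136, had 0.43 and 0.59.

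A smaller group of raised members stood high on array 1 of the non-habituated response. These 16 members, picked after their values were seen, had a ratio above 2 on that array (median 2.92, 2.02 to 5.05), and contig9633 and contig9345 are among them. With any 1 array left out, the lowest non-habituated mean was 0.52 in contig9633 and 0.81 in contig9345, so both still met the minimum size of 0.3. On arrays 2 to 4 of non-habituated aphids their medians were 0.25, 0.37 and 0.15. In habituated aphids their medians were 0.73, 1.31, -0.16 and 3.20, so array 4 was high as well. Just 1 of the 16 was above 0 on all 8 response arrays, against 65 of the other 110 raised members.

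The same 16 members were low on 1 array of another comparison. On array 2 of habituated over non-habituated aphids with solvent their median was -3.10, and all 16 were below -1, against 8 of the other 110. Across the 126 raised members, these 16 included, the ratio on array 1 of the non-habituated response and that on this array had r = -0.884. The other 110 had medians of 0.32 and 0.51 on these 2 arrays, and r within them was not computed. The r of -0.884 describes the 126 members on these 2 arrays, and its source was not tested.

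**Figure D3:**
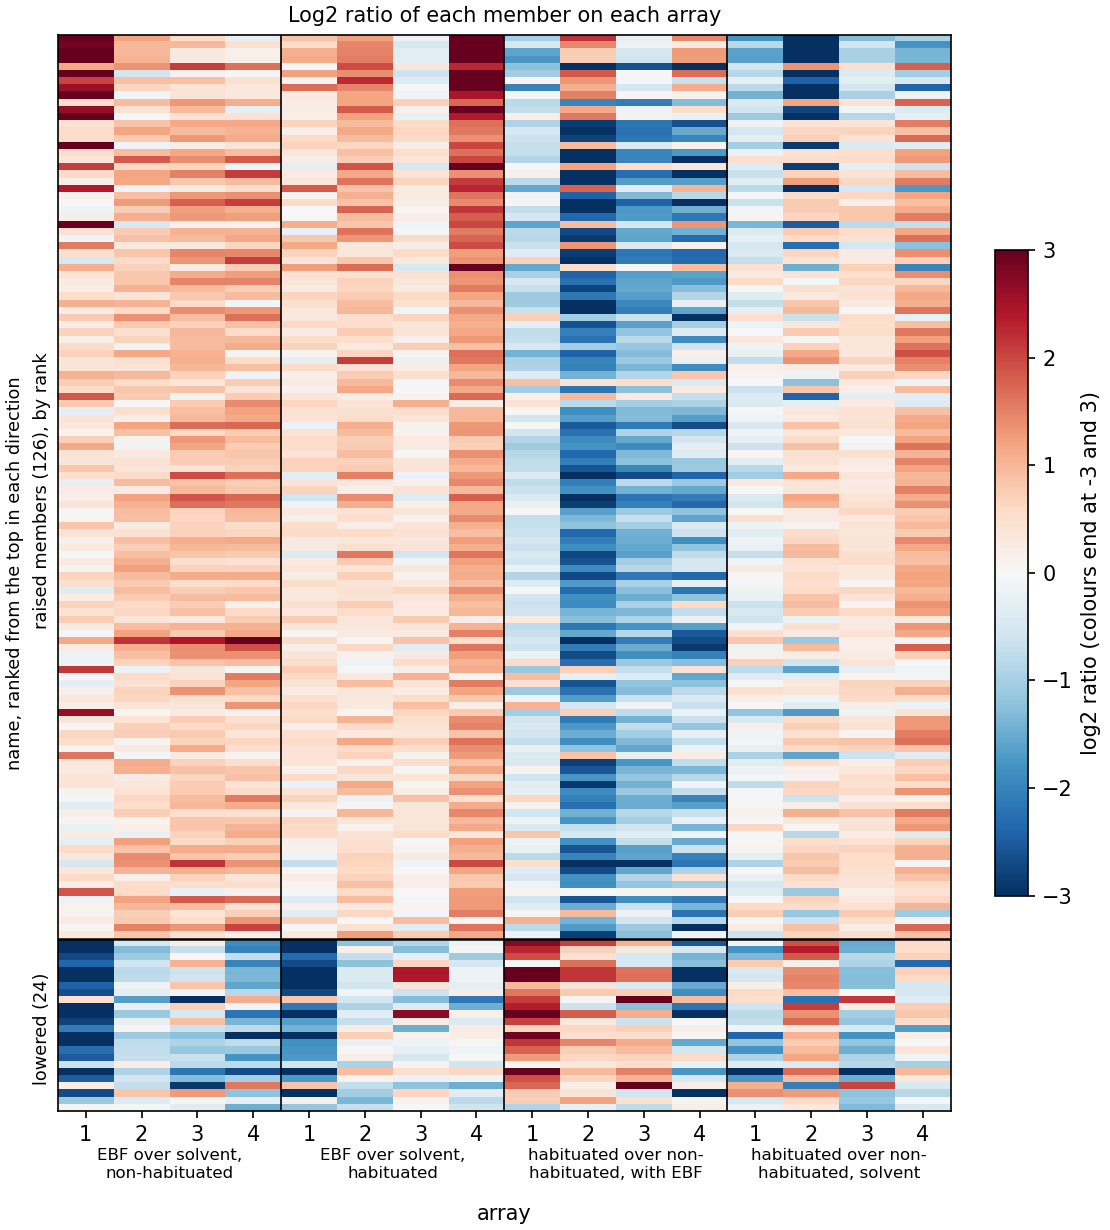
Log2 ratio of each member (rows, raised above lowered, by rank) on each of the 16 arrays (columns, in 4 comparisons). Red is above 0 and blue below, and colours end at -3 and 3. The top rows hold members that are dark red on array 1 of non-habituated and array 4 of habituated aphids, and most raised members are blue on the arrays of rearing under EBF, in the labelled direction.

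The lowered members drew mainly on array 1 of each response. Their median over 24 members was -2.24, -0.51, -0.07 and -0.16 on arrays 1 to 4 of habituated aphids. In non-habituated aphids it was -2.67, -0.63, -0.61 and -1.28. Array 1 was the most extreme in 19 of 24 members in habituated aphids (79.2%, against 13.5% of all identifiers) and in 20 of 24 in non-habituated aphids (83.3%, against 29.8%). Without array 1 of the habituated response, 11 of the 24 still met the rule, and without array 1 of the non-habituated response 19 did.

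Among the lowered members, contig403 ranked first. Its ratios were -5.03, -1.23, -0.88 and -0.15 in habituated aphids and -4.01, -0.53, 0.20 and -1.88 in non-habituated aphids. Array 1 was the lowest in both rearings, and 1 non-habituated array was above 0. The means were -1.82 ± 2.18 and -1.55 ± 1.85 (SD, n = 4 each). contig3589 had -3.67, 0.15, -1.29 and -0.04 in habituated aphids and -4.07, -1.29, -0.69 and -2.02 in non-habituated aphids. Its habituated mean, -1.21 ± 1.76, is smaller in size than its SD, and its non-habituated mean of -2.02 ± 1.47 (SD, n = 4 each) is not.

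By the same measure, contig1338 and contig2117 came first among the lowered members. contig1338 was the single lowered member below 0 on all 8 arrays, with -1.78, -0.000505, -0.26 and -0.12 in habituated aphids and -2.28, -0.74, -1.13 and -1.11 in non-habituated aphids. In habituated aphids 1 array therefore sat at nearly 0. contig2117 had -1.84, -0.22, -0.15 and 0.026 in habituated aphids and -3.13, -0.75, -0.91 and -0.77 in non-habituated aphids. The habituated response of both rested on array 1, and 3 other arrays lay between -0.26 and 0.026.

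What the members share beyond the rule was examined from the signals. Most raised members were dim for these arrays. Their spot signal over local background, in the dimmer channel, had a median of 22.9 on the arrays of habituated responses and 18.8 on those of non-habituated responses, against 35.4 and 54.2 over all identifiers. The lowered members had 45.9 and 35.5. The 16 raised members with a ratio above 2 on array 1 of the non-habituated response were brighter in the median than all identifiers. Their medians were 81.6 and 124 on the habituated and non-habituated response arrays, and the other 110 had 20.4 and 16.2. Single values of the 16 ran from 5.99 to 397 and from 18.4 to 778, and contig9345 was the dimmest on the habituated response arrays.

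Dim identifiers also met the rule more often than bright ones. The identifiers were cut into 4 bins of equal size by signal over background on the non-habituated response arrays. From dimmest to brightest, 6.53%, 3.88%, 2.66% and 1.72% of a bin met the rule, and the bins held 70, 35, 26 and 19 members. Opposite responses of the same size did not thin out in this way, with 7.14%, 5.65%, 3.27% and 7.92% of the bins. A part of low signal in the membership of dim transcripts was not tested.

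**Figure D4:**
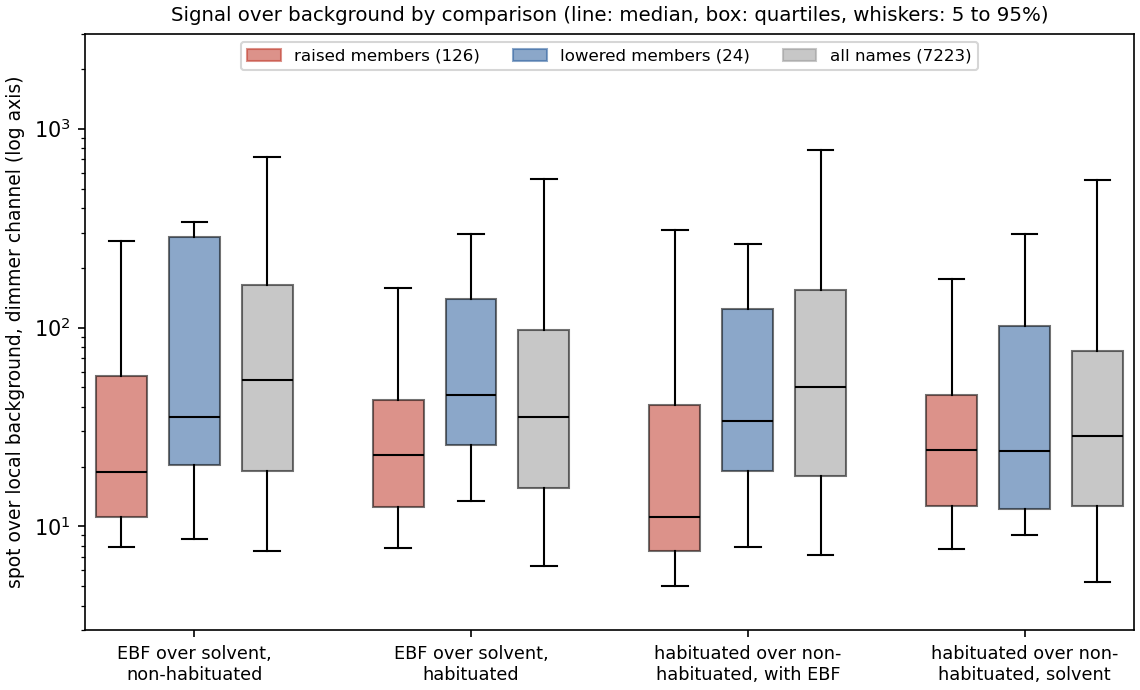
Spot signal over local background in the dimmer channel (log axis), for raised members, lowered members and all 7223 identifiers in each of the 4 comparisons. Lines are medians, boxes quartiles and whiskers the central 90%. Raised members lie below all identifiers in each comparison, most of all on the arrays of rearing under EBF, where their median is 11.2 against 50.1.

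Most members with 2 probes met the rule on both. Of the 60 members with 2 probes, 59 met the rule on each probe alone. The rule averaged these probes on the same arrays, so this is a description of the choice and no separate support. The same share over all identifiers with 2 probes was not counted. The probes of a member differed by 0.03 (median) in the habituated response and by 0.04 in the non-habituated response. A channel was saturated on any of the 16 arrays in 3 raised members (2.38%) and 4 lowered members (16.7%), against 6.4% of all identifiers.

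Some members were nearly alike in every value. In 4 pairs the ratios differed by less than 0.2 on every one of the 16 arrays. These are contig5067 with contig1325, contig968 with contig4664, contig4624 with contig4668, and contig1338 with contig6091, named after their values were seen. Each pair counts as 2 members here. Whether their probes match the same RNA was not tested.

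The rearing comparisons were not part of the rule. They set habituated over non-habituated aphids, once under EBF and once with solvent, and were tested with limma in 1 fit of the 8 rearing arrays over all 7223 identifiers. The arrays of rearing under EBF are still not taken as independent of the choice of members. Read as labelled, as non-habituated over habituated aphids, same-numbered arrays of this group and of the non-habituated response deviated together, with r between 0.385 and 0.672 across identifiers, while differently numbered ones had r between -0.620 and 0.390. In the same reading, r with the habituated response was between 0.117 and 0.492. The first pair of groups shares exposed non-habituated aphids, the first sample of both, and slide 1. The second pair shares exposed habituated aphids, the second sample of one and the first of the other, on different slides. Same-numbered arrays of these groups also share the dye orientation, and those of rearing with solvent have the opposite one. No dye effect was removed before r was taken, so dye, extract and slide cannot be told apart in it. For rearing with solvent, same-numbered arrays had r between -0.558 and 0.0914 with the non-habituated response. With the habituated response r was between -0.184 and 0.421. The former pair shares solvent-treated non-habituated aphids, the second sample of both. The latter shares solvent-treated habituated aphids, the first sample of the rearing comparison and the second of the response. No r here is read as a sign of shared extracts. Whether extracts are shared was not tested, so the arrays of rearing with solvent are not taken as independent of the choice either.

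Under EBF, 0 members passed the test. In the labelled direction, most estimates were below 0 (lower in habituated aphids) for raised members and above 0 for lowered members, and with these arrays turned every one of these signs is the opposite, with medians of 1.02 in raised and -0.44 in lowered members. As labelled, limma's estimate was below 0 in 111 of the 126 raised members, with a median of -1.02 over the list, against 0.002 over all identifiers. It was above 0 in 20 of the 24 lowered members, with a median of 0.44, which was 0.060 without array 1 of this group and 1.08 without array 4. At an adjusted p under 0.05, 0 of 7223 identifiers were called (0%), against 1040 (14.4%) at an unadjusted p under 0.05, and the smallest adjusted p of a member was 0.170. At an unadjusted p under 0.05, 92 raised members were below 0 (8.14% of all identifiers were) and 3 lowered members were above 0 (6.26% of all identifiers were).

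By array, as labelled, the raised members had medians of -0.54, -1.98, -1.25 and -0.93 under EBF. All 4 arrays were below 0 in 80 of the 126 (8.25% of all identifiers), and above 0 in 6 of the 24 lowered members (8.72%). The 16 members with a ratio above 2 on array 1 of the non-habituated response behaved otherwise: 0 of the 16 were below 0 on all 4 arrays, and their median estimate was 0.22. Without array 1 of rearing under EBF, limma called 25 identifiers (0.346%) at an adjusted p under 0.05. Of these, 12 were members (8.0% of members), all lower in habituated aphids as labelled. These arrays are not taken as independent of the choice of members, so nothing is read from the difference in shares. The median estimate of the raised members was -1.25 to -0.71 when any single rearing array was left out.

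Low signal limits these ratios. In the channel labelled exposed habituated, 93 of the 126 raised members (73.8%) were well above background on all 4 arrays, against 92.6% of all identifiers, and 5 were so on 0 of the 4 arrays and have only a bound there. In the channel labelled exposed non-habituated, 125 of 126 were well above background on all 4, against 90.8% of all identifiers. In the authors' direction these 2 channels change places. On the arrays of the habituated response, the rule required all members to be well above background in the same condition.

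The member with the smallest p below 0 was contig5598. As labelled, its rearing ratios under EBF were -0.53, -3.24, -2.09 and -2.69, all below 0, with an estimate of -2.0 (SE 0.27, limma adjusted p = 0.170). It also had the largest raised response of non-habituated aphids among the members, with 1.14, 2.17, 2.42 and 3.04, against 0.58, 0.080, 0.86 and 0.54 in habituated aphids. The smallest p above 0 belonged to contig5478, a lowered member. Its rearing ratios of 1.72, 0.20, 3.38 and 0.19 were all above 0, with an estimate of 1.29 (SE 0.30, limma adjusted p = 0.172).

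With solvent alone, 0 members passed the test. limma called 2 of 7223 identifiers (0.0277%), contig374 and contig4831, which are no members, and 425 (5.88%) had an unadjusted p under 0.05. The median estimate was 0.35 in raised and -0.07 in lowered members, against -0.02 over all identifiers. At an unadjusted p under 0.05, 13 raised members were higher in habituated aphids (1.86% of all identifiers were) and 13 were lower (4.03% of all identifiers were), beside 1 lowered member that was lower. All 16 members with a ratio above 2 on array 1 of the non-habituated response had estimates below 0, from -2.51 to -0.65.

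By array, the raised members had medians of -0.18, 0.44, 0.38 and 0.97 with solvent, so 1 of the 4 arrays lay on the other side of 0. All 4 arrays were above 0 in 25 of the 126 (9.43% of all identifiers) and below 0 in 18 (7.81%), and 15 of those 18 belong to the 16 members described above. contig5784 had the smallest p above 0, with ratios of 0.13, 1.07, 0.85 and 1.56 and an estimate of 0.80 (SE 0.19, limma adjusted p = 0.666). All 4 of its arrays were above 0. contig4162, a lowered member, had the smallest p below 0, with -0.37, -0.40, -0.84 and -0.99 and an estimate of -0.61 (SE 0.14, limma adjusted p = 0.666).

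**Figure D5:**
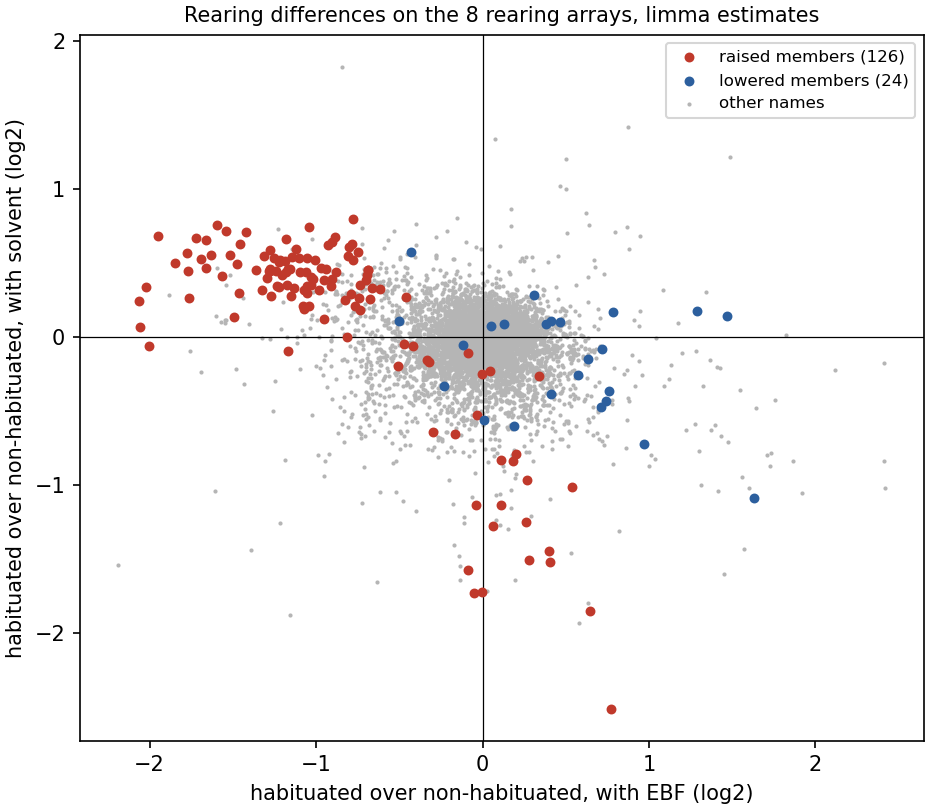
limma estimates of habituated over non-habituated aphids under EBF (x axis, labelled direction, mirrored if turned) and with solvent (y axis), in log2, for raised members (red), lowered members (blue) and the other identifiers (grey). Most raised members sit left of 0 and above 0, with medians of -1.02 and 0.35, and a second string of them runs down to -2.51 with solvent.

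Averaged over both exposures, 0 members passed the test. As labelled, the median estimate was -0.36 in raised and 0.15 in lowered members, with 124 of 126 below 0 (53.0% of all identifiers were) and 19 of 24 above 0 (47.0%). With the arrays of rearing under EBF turned, the medians were 0.70 and -0.35. limma called 0 of 7223 identifiers at an adjusted p under 0.05 and 586 (8.11%) at an unadjusted p under 0.05, of which 22 were raised members, all below 0 (5.26% of all identifiers were), and 2 were lowered members, both above 0 (2.85%). contig5598 again had the smallest p below 0 (-1.03, SE 0.19, limma adjusted p = 0.560), and contig5478 the smallest above 0 (0.73, SE 0.21, limma adjusted p = 0.572).

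The rearing arrays also give the habituated response minus the non-habituated response by a second route, as the rearing difference under EBF minus that with solvent. The median was -1.64 over the raised members on this route, as labelled and from the plain means of scanner-processed ratios, against -0.06 from the response arrays. Over all identifiers the medians were 0.015 and -0.002. The rule used the response arrays, asking for the same sign and a minimum size in both rearings but setting no limit on the difference. The values are therefore set side by side with no test. For the lowered members the medians were 0.70 and 0.22. With the arrays of rearing under EBF turned, the direction the authors' deposited table has, the median of the raised members was 0.86, and that of the lowered members was -0.31.

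In limma's fit of the rearing arrays this difference had a median of -1.41 over the raised members and 0.70 over the lowered ones. With the arrays turned it was 0.71 and -0.31. It was called in 0 of 7223 identifiers, with 852 (11.8%) at an unadjusted p under 0.05. Among those were 89 raised members below 0 (5.68% of all identifiers were), 7 raised members above 0 (6.12%) and 5 lowered members above 0. The smallest adjusted p of a member was 0.135.

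contig1006 had the smallest p below 0 on this route. As labelled, its rearing ratios were -0.98, -2.42, -1.65 and -1.59 under EBF and 0.27, 0.44, 0.51 and 1.39 with solvent, so the arrays of the 2 rearing comparisons did not overlap. The difference was -2.08 (SE 0.31, limma adjusted p = 0.135). On the response arrays it had 0.45, 0.46, 0.46 and 1.37 in habituated aphids and 0.41, 0.81, 1.11 and 1.26 in non-habituated aphids, all above 0. Its processed intensity (geometric mean of 4 arrays) was 176 in the channel labelled exposed habituated against 548 in that labelled exposed non-habituated on slide 1, both well above background on all 4 arrays. On slide 2 it was 3311 in habituated against 2102 in non-habituated solvent-treated aphids. contig4162 had the smallest p above 0 (0.80, SE 0.20, limma adjusted p = 0.210).

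In the authors' deposited table, all 150 members had the same sign in both responses as here. The medians of its log2 values were 0.57 in habituated and 0.64 in non-habituated aphids for raised members. For lowered members they were -0.65 and -1.07. The values stem from the same arrays and were normalized by the authors, so they are another reading of the same data.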

How the data were processed

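Whole Myzus persicae were measured on 16 two-colour Agilent arrays. Per the file headers, Agilent Feature Extraction (10.5.1.1) gave the intensity values of each spot: median signal and local background intensity, and a processed intensity that the software had background-subtracted and dye-normalized. The authors' deposited table gives mean log2 ratios by group, and their value table gives normalized log2 ratios by array. Its p-value columns, deposited by the authors, were not used. The submitters' processing notes list limma without a version. The number of arrays limits the precision.

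Of 15744 spots, 1116 were controls, and 14628 probes carry 10489 names (identifiers). The eligible 10576 probes have 7223 names. The members, the rule and the lists were chosen with earlier results of these data known. Responses were computed from processed intensities as the rule says, with the array median taken over eligible probes. The rearing contrasts were tested in limma 3.58.1 (R 4.3.3) on the 8 rearing arrays: normexp background correction with offset 50 on median signals, loess within each array, control spots at weight 0, 175 outlier spots of the 16 arrays left out, probes of a name averaged. The fit had a coefficient per array group and 1 dye effect (5 residual degrees of freedom), with moderated statistics and Benjamini-Hochberg adjustment over 7223 names for each of 4 contrasts, at a threshold of 0.05. The test was planned for mean signals; the files hold medians. The fit was tested on simulated data.

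Named members follow a rule: the 2 raised and 2 lowered with the largest smaller response, the 2 of each with the largest least extreme response array, the smallest p on each side of each contrast, the edge of the set, and identifiers that are no contig names. Same-numbered arrays of both rearing comparisons deviated with r from -0.227 to 0.267. These comparisons share no condition and their same-numbered arrays have opposite dye orientations, so this r cannot show whether the numbers mark pairs. The labels do not state pairs, and the numbers were not taken as such. Alternatives covered background correction, normalization, filters, dye terms, array weights, a joint fit, directions and each array left out. Sequences and gene names were not used here.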

Additional observations from a re-analysis of the deposited data

Results flagged for a closer look

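An array stood apart from the other 3 arrays of its comparison in 7 of the 72 sets of 4 arrays that were examined for the named identifiers. Chance gives about 1 in 20 for independent sets not picked by their values. Most named identifiers were picked by values on these arrays, and the sets share arrays, so the count is not read against that rate. For contig9633, array 2 of habituated over non-habituated aphids with solvent lay at -6.205. For contig2117, array 1 lay at -1.841 in the habituated response and at -3.127 in the non-habituated response. For contig1338, array 1 of the habituated response lay at -1.777. For contig1006, array 4 of the habituated response lay at 1.373, and for contig4162 array 2 of the non-habituated response lay at 0.1916, above 0 while the other 3 were below. For FB1816RPVRTD, array 2 of rearing with solvent lay at -0.05763, the lowest of its 4 arrays.

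In 2 of the named members all 4 arrays of rearing under EBF, as labelled, lay below 0 and all 4 arrays of rearing with solvent above 0. Of all identifiers, 8.25% met the first condition and 9.43% the second, and those meeting both were not counted. contig1006 was named for the smallest p below 0 of the difference and contig5784 for the smallest p above 0 with solvent. Their separation is therefore partly built into the choice, and nothing is read from the count. The difference between the rearing effects, under EBF minus with solvent, was -2.083 in contig1006 (limma adjusted p = 0.135) and -1.573 in contig5784 (limma adjusted p = 0.139), so neither passed the test. With the arrays under EBF turned, both groups lie above 0. The comparisons lie on different slides, and slide and comparison cannot be told apart.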

How the results depend on the processing

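The set itself depended on the arrays more than on the normalization. All 150 members met the rule with loess, with normexp and loess, with the authors' normalized ratios and with the array median over all probes, of which 141, 143, 141 and 149 stayed in the first 150, and so did all 145 that were still measured without saturated probes and all 110 still measured with a background filter on all 16 arrays. With the median of 4 arrays 126 met it, and 128 to 150 with 1 response array left out. With the habituated response arrays turned it was 0, by construction.

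With the arrays of rearing under EBF turned, an alternative added after seeing the data, each sign of that comparison reversed: the median was 1.02 in raised and -0.44 in lowered members, with 2.0 in contig5598 and -1.29 in contig5478. The average over both exposures became 0.70 in raised and -0.35 in lowered members, with 0.97 in contig5598 and -0.56 in contig5478. The difference of responses became 0.71 in raised and -0.31 in lowered members, with 0.83 in contig1006.

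The joint fit of all 16 arrays, which has more residual degrees of freedom and includes the arrays that chose the members, called 483 identifiers (17 members) for rearing under EBF, 0 with solvent and 481 (9 members) for the difference of responses. These are 11.3% and 6.0% of members, against 6.69% and 6.66% of all identifiers, and the member calls test values that chose the members, so nothing is read from them. With solvent, 0 identifiers were called without a dye effect, with a dye effect per array group and without the background filter, and 12 with array weights, where the median of lowered members reversed to 0.093.

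With 1 rearing array left out, between 0 and 25 identifiers (0 to 12 members) were called under EBF, the 25 without array 1 of that comparison (8.0% of members, against 0.346% of all identifiers). With solvent it was 0 to 9, for the average 0 to 1 and for the difference of responses 0 to 1, with 0 members called in each of these 3 contrasts. The median of lowered members ran from 0.060 to 1.08 under EBF (1.24 with array weights), from -0.63 to 0.011 with solvent and from -0.15 to 0.43 for the average, so the last 2 changed sign. The cause was not tested for any of these changes.

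A replicate block on the array number, which the labels do not state to mark pairs, had a consensus correlation of -0.0887 and called 0, 2, 0 and 0 identifiers under EBF, with solvent, for the average and for the difference. Its medians in raised members were -1.02, 0.35, -0.36 and -1.41, and it changed no call. Low signal also limits the rearing ratios under EBF.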
